A study of Mus musculus with 12 samples.

Results

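The genes described here are 10 inhibitors and feedback genes of the transcription factor NF-κB, measured in cerebral vessels of the mouse forebrain after systemic lipopolysaccharide (LPS). They were chosen by name from the pathway, with earlier results of these data known, and all 10 were found in the files and were among the 19150 genes tested. The mice were wild-type C57BL6 animals, 2-3 months old, and received 1 intraperitoneal injection of LPS from Escherichia coli O55:B5 at 10 mg/kg or of PBS. Vessels were taken 15 min, 30 min, or 4 h later, with 3 libraries in each of the 4 groups. Each library is described as a pool of the vessels of 1 male and 1 female mouse, so the spread between libraries would be that between such pools. Between libraries of a group, the variance was 2.21 to 2.87 times that of counting alone (median over genes). The SE and p-values below rest on this narrow spread. Whether the libraries of a group were prepared on separate days is not given. How long after injection the PBS vessels were taken is not given in the sources used here.

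NF-κB is a family of dimeric transcription factors that toll-like receptors and cytokine receptors activate within minutes. In resting cells the IκB proteins hold the dimers in the cytoplasm, and the IκB kinases mark them for destruction once a receptor is engaged. The freed dimers then switch on genes of inflammation together with genes that end the signal, such as the IκBs themselves and enzymes that remove ubiquitin chains from the receptor complexes. In brain endothelium, which meets circulating LPS and cytokines first, this pathway is known to drive adhesion molecules, chemokines, and cyclooxygenase-2.

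By role, the 10 genes fall into 4 groups. Nfkbia, Nfkbib, and Nfkbie encode the cytoplasmic inhibitors IκBα, IκBβ, and IκBε. Nfkbiz, Nfkbid, and Bcl3 encode the nuclear IκB-like proteins IκBζ, IκBNS, and Bcl-3, which bind NF-κB on DNA and can raise or lower transcription. Tnfaip3 encodes A20, an enzyme that edits ubiquitin chains, Tnip1 encodes the A20-binding protein ABIN-1, and Cyld encodes a deubiquitinase for the same receptor complexes. Tnfaip2 is a gene named for its induction by TNF in endothelial cells.

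Upstream sequence is shown first for the genes whose RNA levels are contrasted below. The RefSeq promoter windows of build GRCm38.p6, each 250 bases before and 50 after a start site, were available for 9 of the 10 genes, in 12 windows. Nfkbiz was not among them. Both strands were searched for the κB consensus, the degenerate 10-base pattern that NF-κB dimers bind, and no other motif was searched. A match was present in 8.46% of all 32851 windows and in 8 of the 12 windows here, which belonged to 8 genes. Nfkbib had no match, and Bcl3 had its match only after the start site. In the stretches of 100 bases below, read 5′ to 3′ on the strand of the gene, capitals mark matches, and the stretches hold no annotated exon of their gene. The first 3 genes rose early or late after LPS, Nfkbie rose late, Nfkbid rose and then fell, and Cyld is shown as the gene whose change did not pass the 0.58 limit on the log2 scale at any time.

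Nfkbia (chr12:55492648-55492747, minus strand): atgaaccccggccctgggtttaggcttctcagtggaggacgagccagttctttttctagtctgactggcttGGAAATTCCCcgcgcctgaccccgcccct
Tnfaip3 (chr10:19015411-19015510, minus strand): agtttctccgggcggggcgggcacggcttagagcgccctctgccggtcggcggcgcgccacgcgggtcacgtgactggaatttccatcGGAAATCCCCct
Tnip1 (chr11:54962941-54963040, minus strand): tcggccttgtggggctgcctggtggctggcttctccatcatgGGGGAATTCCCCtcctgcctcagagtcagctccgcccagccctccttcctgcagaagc
Nfkbie (chr17:45555584-45555683, plus strand): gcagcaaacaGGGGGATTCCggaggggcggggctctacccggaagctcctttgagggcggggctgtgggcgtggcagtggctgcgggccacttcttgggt
Nfkbid (chr7:30422170-30422269, plus strand): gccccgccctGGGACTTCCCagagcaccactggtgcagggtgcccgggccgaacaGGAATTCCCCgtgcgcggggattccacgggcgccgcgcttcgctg
Cyld (chr8:88696863-88696962, plus strand): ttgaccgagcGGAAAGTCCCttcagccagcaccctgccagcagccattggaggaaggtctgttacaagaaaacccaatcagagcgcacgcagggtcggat

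The matches began 29 bases before the start site in Nfkbia, 12 bases before it in Tnfaip3, and 106 bases before it in Nfkbie. A further Tnfaip3 match, 125 bases before the start, lies outside the printed stretch. The Tnfaip2 match, 24 bases before the start, is not shown because its stretch is exonic. In Tnip1, 3 matches that overlap by all but a base or 2 form the capital stretch, the first of them 58 bases before the start. The printed Nfkbid stretch belongs to a start site at 30422406, between the starts of the gene's 2 main annotated transcripts, which are described further on. The windows at the starts of those 2 transcripts held no match. In Cyld a match was present 155 bases before the start at 88697028. Cyld-203, the transcript with the largest estimated share of the gene in every group mean, starts further downstream, at 88705222. No window was available for that start. A match is a description of these letters only.

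Levels are given as CPM (counts-per-million, scaled by TMM factors), which compare 1 gene across libraries. Depth was 18.3 to 25.9 M fragments per library, and the lowest number of fragments behind any value of the 10 genes was 57, for Nfkbie in a library of LPS 15 min. A gene was called when edgeR's glmTreat, fitted over all 12 libraries, placed its change beyond 0.58 on the log2 scale at a false discovery rate of 0.05 (Benjamini-Hochberg, 19150 genes).

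Of the 10 genes, 4 were called higher and 1 lower at LPS 15 min against PBS, where 3.35% of all genes were called higher and 0.898% lower. By LPS 30 min 6 were called higher and 0 lower, beside 3.8% of all genes called higher. By LPS 4 h 9 were called higher and 0 lower, beside 19.1% of all genes called higher. The median log2 fold change of the 10 genes was 0.17, 1.58, and 4.49 at the 3 times, and that of all genes was 0.00, -0.01, and -0.01. Without the fold limit, edgeR's quasi-likelihood test called 9 of the 10 genes at LPS 30 min and all 10 at LPS 4 h, each of them higher, beside 19.7% and 34.9% of all genes called higher by that test. With DESeq2 and the 0.58 limit the calls were those of edgeR.

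Between the LPS times, 7 of the 10 genes were higher at LPS 30 min than at LPS 15 min, where 2.77% of all genes were called higher. Between LPS 30 min and LPS 4 h, 7 rose and 1 fell, beside 17% and 11.9% of all genes called in these directions. These comparisons share libraries with those against PBS and are not independent of them.

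**Figure D1:**
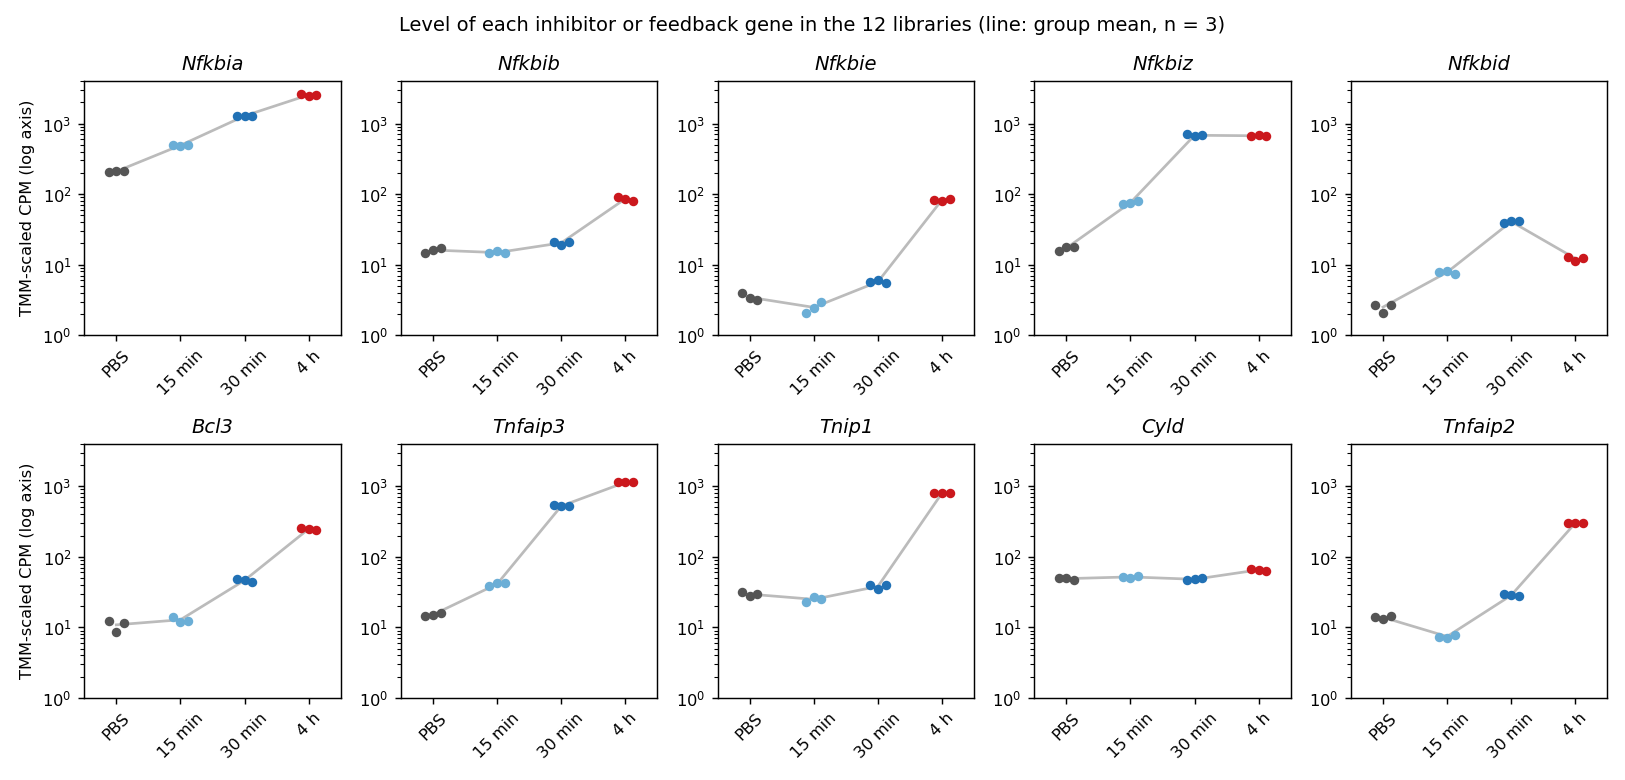
Level of each of the 10 genes in the 12 libraries, 1 panel per gene, with TMM-scaled CPM on a log axis against the group, points for libraries and a line through the group means (n = 3). Nfkbia, Nfkbiz, Nfkbid, and Tnfaip3 were higher in all libraries of LPS 15 min than in those of PBS, Tnip1 reached 793 to 811 CPM at LPS 4 h after 34.4 to 39.9 CPM at LPS 30 min, and Nfkbid was lower at LPS 4 h than at LPS 30 min.

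Among the cytoplasmic inhibitors, Nfkbia rose at every step, whereas Nfkbib and Nfkbie were called against PBS only at LPS 4 h. Nfkbia, which encodes the IκB known for the fastest resynthesis, stood at 203, 211, and 214 CPM in PBS. After 15 min of LPS it was at 488, 486, and 498 CPM, and after 30 min at 1283, 1295, and 1269 CPM. The LPS 4 h libraries held 2581, 2487, and 2571 CPM, so no library of a group overlapped with a library of the next. Against PBS, Nfkbia was 2.34-fold higher at LPS 15 min (log2 fold change 1.23 ± 0.0235 SE, edgeR adjusted p = 5.16e-17), 6.13-fold at LPS 30 min, and 12.2-fold at LPS 4 h. The step from LPS 30 min to LPS 4 h was 0.99 ± 0.0225 (SE) on the log2 scale, with an edgeR adjusted p of 1.06e-14. Scaled by library size alone this step was 0.45 and was not called.

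Nfkbib encodes an IκB that is known to be degraded and resynthesised more slowly than IκBα. Its levels were 14.8, 16.2, and 17.3 CPM in PBS and 14.5, 15.5, and 14.4 CPM at LPS 15 min, and these groups overlapped. At LPS 30 min they were 20.9, 19.1, and 21 CPM, above all PBS libraries, with a log2 fold change of 0.34 (95% confidence interval 0.19 to 0.49) that did not pass the 0.58 limit. After 4 h they were 90.7, 86.5, and 80.5 CPM, 5.33-fold above PBS (log2 2.41 ± 0.0668 SE, edgeR adjusted p = 7.21e-18). Nfkbib overlaps Sirt2 on the opposite strand, which held 821 to 2839 fragments, and the library kit does not mark strand.

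Nfkbie was the least abundant cytoplasmic inhibitor in PBS, with 3.90, 3.31, and 3.13 CPM. Each LPS 15 min library was below these, at 2.07, 2.42, and 2.94 CPM, with an interval of -0.76 to -0.20 for the log2 fold change and no call. The LPS 30 min libraries held 5.59, 6.11, and 5.41 CPM, all above PBS, and the change of 0.73 on the log2 scale (interval 0.48 to 0.98) was not called (edgeR adjusted p = 0.482). Measured from LPS 15 min, the rise to LPS 30 min was called (log2 1.21 ± 0.129 SE, edgeR adjusted p = 0.000301). With scaling to the reference genes Actb, Gapdh, and Rplp0 that rise was 0.74 and was not called. Nfkbie reached 82, 80.7, and 86.1 CPM at LPS 4 h, 24.1-fold above PBS, the largest fold of the 3 cytoplasmic inhibitors under TMM, library-size, and reference-gene scaling.

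The nuclear IκB-like genes followed 3 different courses: Nfkbiz rose and held, Nfkbid rose and fell, and Bcl3 rose through LPS 4 h. Nfkbiz, whose protein is known as a co-activator of secondary inflammatory genes, was at 15.5, 18, and 17.9 CPM in PBS and at 72.7, 75.3, and 78.5 CPM at LPS 15 min. It was at 699, 661, and 684 CPM at LPS 30 min and at 661, 678, and 670.5 CPM at LPS 4 h, and these last groups overlapped. The changes against PBS were 4.40-fold, 39.7-fold, and 39.0-fold, and the 15 min value (log2 2.14 ± 0.0459 SE, edgeR adjusted p = 2.88e-18) was the largest of the 10 genes at that time. From LPS 30 min to LPS 4 h the difference was -0.02, with a 95% confidence interval of -0.09 to 0.04. By library size alone that difference was -0.56 and by the reference genes -0.38, and neither was called.

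Nfkbid, which encodes a nuclear inhibitor known to dampen selected NF-κB targets, had 2.70, 2.09, and 2.71 CPM in PBS. It rose to 7.8, 8.11, and 7.47 CPM after 15 min, 3.13-fold above PBS, and to 39, 41.6, and 41.6 CPM after 30 min. By LPS 4 h it was back to 12.9, 11.3, and 12.4 CPM, below every library of LPS 30 min. Its order against LPS 15 min turned with the scale: the 4 h libraries were above those of 15 min in TMM-scaled CPM, while the log2 fold change over PBS was 1.58 after 4 h and 1.62 after 15 min by library size, and 1.36 and 1.55 by the reference genes. The rise over PBS was 16.3-fold at LPS 30 min (log2 4.03 ± 0.103 SE, edgeR adjusted p = 2.02e-18) and 4.87-fold at LPS 4 h. Nfkbid was the only one of the 10 genes called lower at LPS 4 h than at LPS 30 min, and it fell by 1.75 on the log2 scale (SE 0.0901, edgeR adjusted p = 9.22e-12), or 3.35-fold. This fall was called under the 5 scalings compared, at -1.73 to -2.28.

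Bcl3 encodes a nuclear partner of the p50 and p52 subunits. With 12.3, 8.64, and 11.6 CPM in PBS and 14.2, 12, and 12.2 CPM at LPS 15 min, its first 2 groups overlapped, and the interval of the difference was 0.05 to 0.46 on the log2 scale. The LPS 30 min libraries stood at 49.1, 46.3, and 43.8 CPM and the LPS 4 h libraries at 254, 250.5, and 242 CPM, with no overlap. These were 4.31-fold (log2 2.11 ± 0.0827 SE, edgeR adjusted p = 1.6e-13) and 23.1-fold above PBS.

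Of the 3 genes of ubiquitin editing, Tnfaip3 rose early and furthest, Tnip1 rose only by LPS 4 h, and Cyld did not pass the 0.58 limit. Tnfaip3, whose protein A20 shuts off signals from TNF and toll-like receptors, was measured at 14.4, 15.1, and 15.8 CPM in PBS. The libraries held 38.1, 42.4, and 42.7 CPM after 15 min of LPS and 533, 516, and 521 CPM after 30 min. By LPS 4 h they held 1143, 1137, and 1130.0 CPM, and no groups overlapped. The folds over PBS were 2.71, 34.6, and 75.2, the last (log2 6.23 ± 0.0406 SE, edgeR adjusted p = 6.56e-31) being the largest of the 10 genes under each scaling tried. The step from LPS 30 min to LPS 4 h was 2.17-fold by TMM and was called, and it was 0.58 on the log2 scale by library size alone and was not.

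Tnip1, the partner through which A20 is brought to ubiquitin chains, behaved unlike it at the early times. PBS libraries held 31.5, 27.9, and 29.2 CPM, LPS 15 min libraries 23.2, 26.5, and 25.1 CPM, and LPS 30 min libraries 39.9, 34.4, and 39.8 CPM. Each LPS 15 min library was below and each LPS 30 min library above PBS, but both intervals, -0.37 to -0.13 and 0.25 to 0.48 on the log2 scale, lay inside the 0.58 limit. The level at LPS 4 h was 811, 793, and 798 CPM, 27.1-fold above PBS (log2 4.76 ± 0.0476 SE, edgeR adjusted p = 1.62e-27). Its rise from LPS 30 min, 4.40 ± 0.047 (SE) on the log2 scale, was the largest of the 10 genes over that step.

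Cyld was the one gene with no call beyond the 0.58 limit in any of the 5 comparisons. It was at 50.7, 49.5, and 46.7 CPM in PBS, 51.2, 50.4, and 53.9 CPM at LPS 15 min, and 46.3, 48.2, and 49.3 CPM at LPS 30 min. Both early groups overlapped with PBS, and the LPS 30 min libraries lay below those of LPS 15 min, with an interval of -0.21 to -0.01 for that log2 difference. LPS 4 h libraries held 66.8, 65.4, and 63.6 CPM, above every other library, with a log2 fold change of 0.41 (interval 0.31 to 0.52) against PBS. The sign of that value turned with the scaling: it was -0.29 by library size alone and -0.51 by the reference genes, and no scaling gave a call beyond the limit.

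Tnfaip2 was the only one of the 10 genes called lower than PBS at any time. It went from 14, 13.2, and 14.4 CPM in PBS to 7.39, 7.09, and 7.74 CPM at LPS 15 min, 1.86-fold lower (log2 -0.90 ± 0.064 SE, edgeR adjusted p = 0.00026). The direction then turned, with 29.2, 28.6, and 27.6 CPM at LPS 30 min and 299, 301, and 305 CPM at LPS 4 h. The early fall was called under the 5 scalings compared (-0.90 to -1.24). The 2.06-fold rise at LPS 30 min (log2 1.04 ± 0.0519 SE, edgeR adjusted p = 4.57e-08) was not called with an offset for transcript length (0.80), on the deposited gene table with limma (0.79 with a pseudocount of 1), or by the reference genes (0.48). The gene was 21.8-fold above PBS by LPS 4 h. An antisense gene over its locus held 8 to 25 fragments.

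**Figure D2:**
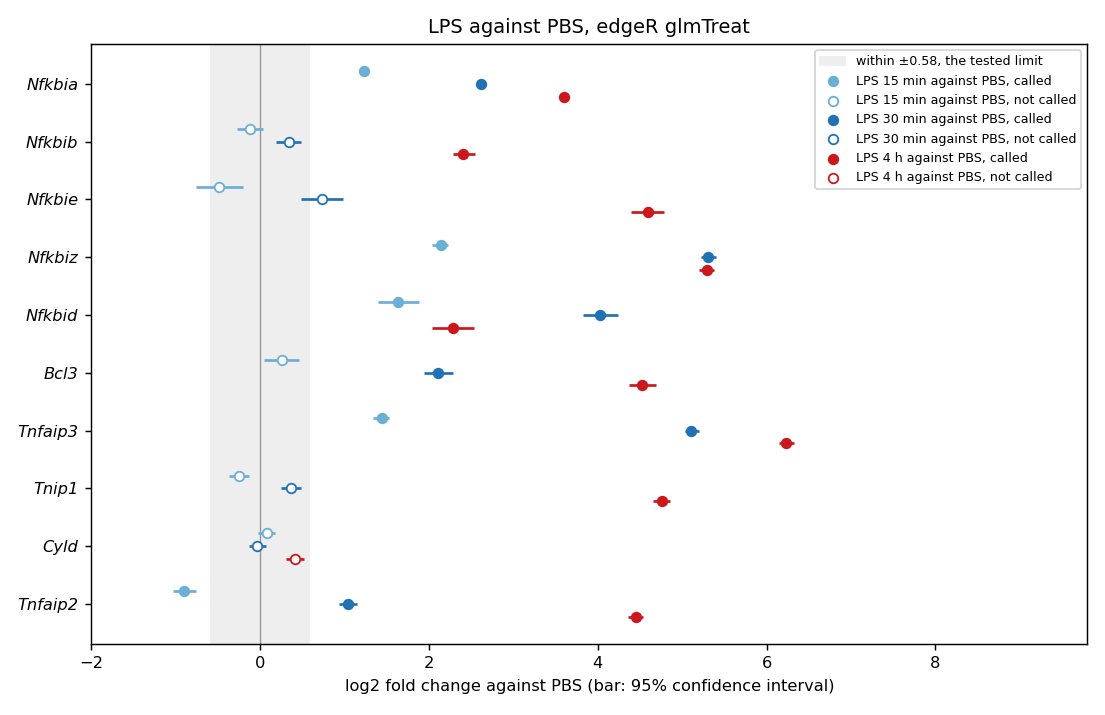
Log2 fold change of each gene at the 3 LPS times against PBS (x axis) with 95% confidence intervals, 3 libraries per group, filled points for called changes and open points for the others, and the ±0.58 limit shaded. Every LPS 4 h point except that of Cyld (0.41) lies outside the band, and the Tnfaip2 point of LPS 15 min (-0.90) is the only filled one below 0.

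The 4 h values depend on the scale more than the early ones. The mean TMM factor of the PBS libraries was 1.17 and that of the LPS 4 h libraries 0.717, with 1.15 and 1.04 in between. With library size alone, the median of all genes at LPS 4 h against PBS was -0.71 in place of -0.01, and 18.2% of the called genes were higher in place of 58%. With the 3 reference genes of the study's RT-qPCR it was -0.93, with 13.3% of called genes higher. All 3 of these genes were called higher at LPS 4 h under TMM: Actb by 1.43, Gapdh by 0.66, and Rplp0 by 0.69 on the log2 scale. The 9 genes called higher at LPS 4 h were called higher under each of these scalings, Nfkbid with the smallest value (1.36 by the reference genes) and Tnfaip3 with the largest (5.31).

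**Figure D3:**
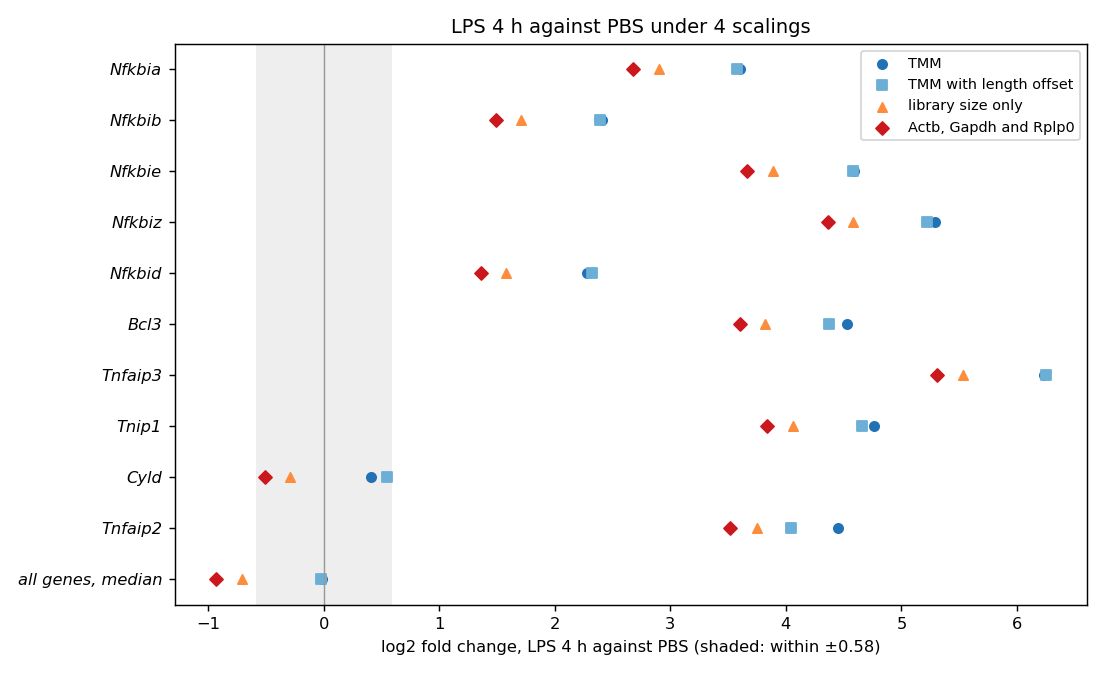
Log2 fold change of LPS 4 h against PBS (x axis) for the 10 genes and the median of all genes, with 1 marker for each of 4 scalings and the ±0.58 limit shaded. Library size and reference-gene scaling move all points to the left, and Cyld is the only gene of the 10 whose sign turns (0.41, 0.55, -0.29, and -0.51).

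Levels between genes can be compared as transcripts-per-million (TPM), which account for length. In PBS, Nfkbia led with 252 ± 4.59 TPM (SD, n = 3), followed by Nfkbib with 24.9 ± 2.08 and Tnip1 with 21 ± 1.41 TPM. Below them, Bcl3 (13.4 TPM) and Cyld (11.4 TPM) had overlapping ranges, as did Tnfaip2 (8.27 TPM) and Nfkbiz (7.91 TPM). Tnfaip3 came next with 5.49 TPM, and Nfkbie (2.37 TPM) and Nfkbid (2.23 TPM) overlapped at the bottom. By LPS 30 min the order was Nfkbia (1254 TPM), Nfkbiz (249 TPM), Tnfaip3 (156 TPM), Bcl3 (40.4 TPM), and Nfkbid (30 TPM), with no overlap between neighbours. By LPS 4 h Tnip1 (289 TPM) had moved to the second place behind Nfkbia (1633 TPM), ahead of Tnfaip3 (226 TPM), Nfkbiz (161 TPM), and Bcl3 (149 TPM). Tnfaip2 (73.6 TPM) and Nfkbib (70.9 TPM) overlapped there, Nfkbie followed with 30.8 TPM, and Cyld (9.05 TPM) and Nfkbid (6.01 TPM) were lowest. Nfkbiz fell from 249 to 161 TPM between these times while its TMM-scaled difference was -0.02. TPM sum to a constant in each library and carry no TMM factor.

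Nfkbia held 72.2% ± 0.489 (SD, n = 3) of the summed TPM of the 10 genes in PBS and 82.5% ± 0.492 at LPS 15 min. By LPS 30 min the share was 69.6% ± 0.755, and by LPS 4 h it was 61.6% ± 0.581, below every library of PBS in both cases. The ratio of Nfkbia to Tnfaip3 TPM, which no scaling affects, was 45.9 ± 1.19 in PBS and 40 ± 2.41 after 15 min of LPS. After 30 min it was 8.02 ± 0.185 and after 4 h 7.21 ± 0.118.

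The sum of the cytoplasmic inhibitors was mostly Nfkbia, which held 252 of 279 TPM in PBS and 1254 of 1282 TPM at LPS 30 min, so the following ratio is largely that of Nfkbia to the subunits. The summed TPM of the cytoplasmic inhibitors rose from 279 ± 6.36 (SD, n = 3) in PBS over 624 ± 14.9 and 1282 ± 27.4 to 1734 ± 42.8 at LPS 4 h. That of the 5 NF-κB subunits Rela, Relb, Rel, Nfkb1, and Nfkb2 went in the same order over 139.8 ± 0.582, 148 ± 6.99, 194 ± 2.01, and 558 ± 16.2. Their ratio, free of the scaling, was 1.96, 2.00, and 2.03 in PBS and 4.03, 4.14, and 4.55 at LPS 15 min. It reached 6.58, 6.75, and 6.53 at LPS 30 min and stood at 3.13, 3.14, and 3.06 at LPS 4 h. No groups overlapped, but 3 libraries against 3 cannot give an exact two-sided permutation p below 0.1. The ratio is one of transcripts and says nothing of protein.

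**Figure D4:**
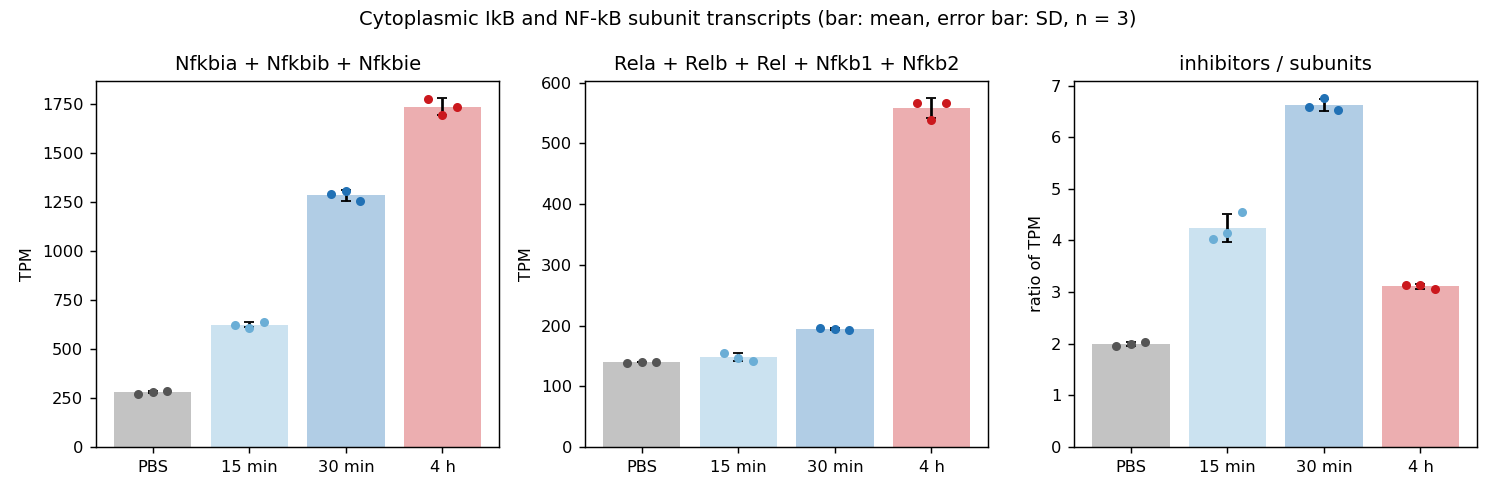
Summed TPM of Nfkbia, Nfkbib, and Nfkbie (left), summed TPM of 5 NF-κB subunit genes (middle), and their ratio (right) by group, with bars for means, error bars for SD, and points for the 3 libraries. The ratio goes from 2.00 in PBS to 6.62 at LPS 30 min and 3.11 at LPS 4 h, when the subunit transcripts are highest.

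Other genes of the pathway were followed in 4 lists. Of 11 genes of NF-κB subunits and IκB kinases, 0 were called at LPS 15 min, 4 higher at LPS 30 min, and 9 higher at LPS 4 h (medians 0.00, 0.57, and 2.61). The 4 lists held 11, 28, 12, and 13 tested genes. Without the fold limit, edgeR called 29 genes of the 4 lists at LPS 15 min in place of 9. Over all 19150 genes it called 7393 in place of 814. Rel, the c-Rel subunit of NF-κB, rose most in the first list, by 2.69 ± 0.066 (SE) on the log2 scale at LPS 30 min and 4.30 ± 0.0628 at LPS 4 h. Nfkb2, the precursor of p52, followed with 1.12 and 3.74, and Relb, its usual partner, was at 3.64 at LPS 4 h. Ikbkb and Ikbkg, which encode the catalytic IKKβ and the scaffold NEMO, were not called at any time.

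Of 28 further genes of ubiquitin feedback and receptor adaptors, 0 were called at LPS 15 min, 4 higher at LPS 30 min, and 17 higher and 1 lower at LPS 4 h (medians -0.02, 0.04, and 0.87). Zc3h12a, which encodes the RNase Regnase-1 that degrades cytokine mRNAs, rose by 2.46 ± 0.0707 (SE) at LPS 30 min and 4.04 ± 0.0676 at LPS 4 h. Birc3, a ubiquitin ligase of the TNF receptor complex, rose by 1.24 and 4.77. Tnip3, a relative of Tnip1, was at 0 to 0.3 CPM in PBS and 10.3 to 12.9 CPM at LPS 4 h, a log2 fold change of 6.28 ± 0.435 (SE). Tab1, an adaptor of the kinase TAK1, fell by 0.85 on the log2 scale (edgeR adjusted p = 0.00125).

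Among 12 other named inhibitors of the pathway, 0 were called at LPS 15 min, 1 higher at LPS 30 min, and 4 higher and 2 lower at LPS 4 h (medians -0.17, 0.04, and -0.11). Over all genes 19.1% were called higher and 13.9% lower at LPS 4 h. Irak3, the inactive kinase IRAK-M that restrains toll-like receptors, rose by 3.83 ± 0.065 (SE) at LPS 4 h, and Tank, a TRAF-binding regulator, by 1.76 ± 0.0653. Tifa, an adaptor of TRAF6 that is known to activate rather than inhibit NF-κB, was the gene called at LPS 30 min (1.46) and rose most at LPS 4 h (5.21). Pdlim2 (-1.09) and Commd1 (-0.92), both known to promote turnover of RelA, fell.

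The 14 textbook targets of NF-κB served as a comparison, and 13 passed the filter on low counts. Of these 9, 12, and 13 were called higher at the 3 LPS times in order (medians 1.36, 4.82, and 8.15). The chemokine genes Cxcl1 and Cxcl2 led at LPS 30 min, with 9.59 and 9.84 on the log2 scale. Cxcl2 was at 0.115 to 0.304 CPM in PBS, so its fold changes here and at LPS 4 h rest on few PBS fragments. By LPS 4 h Cxcl2 (12.58) and Cxcl10 (12.18) followed Il6, which was at 0 in every PBS library. Set against 3 counts summed over those 3 libraries, Il6 was at least 15068-fold higher. With Il6 at this kind of bound the medians were 1.36, 4.81, and 8.15. Only Csf2 did not pass the filter.

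For each of the 10 genes, the genes with the most similar course were found as the smallest root mean square difference between log2 fold changes at the 3 LPS times, among genes with a mean of at least 5 CPM. Icam1, the leukocyte adhesion molecule, was nearest both to Tnfaip3 (0.318), followed by Ccl12 (0.47) and Ptgs2 (0.631), and to Nfkbiz (0.6), followed by Csrnp1 (0.647) and Tnfaip3 (0.688). For Tnfaip2, the nearest were Thbs1 (0.143), Nfkbie (0.312), and Lilr4b (0.361), and for Nfkbie they were Lilr4b (0.157), Thbs1 (0.195), and Gm49342 (0.212). Nfkbid lay nearest to Ppp1r15a (0.305), Dnajb1 (0.503), and Ier2 (0.509), genes of the stress response and the immediate early class. Nearest to Nfkbia were Slc25a25 (0.191), Arid5a (0.258), and Fosl2 (0.371), and nearest to Bcl3 were D730005E14Rik (0.21), Bcl2a1b (0.352), and Noct (0.365). Tnip1 had Nt5e (0.118), Ltf (0.121), and Cxcl16 (0.194) as its nearest genes, Nfkbib had Ifitm2 (0.0327), Arf4 (0.0636), and Rsph3b (0.072), and Cyld had Gm44087 (0.0129), Dip2c (0.0188), and Cpsf7 (0.022). These are ranks over 3 values that share the PBS libraries, and flat courses such as that of Cyld have many near neighbours.

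Transcript estimates differed between times for Nfkbid and Tnip1. Nfkbid-203, which starts at position 30421732 of chromosome 7, and Nfkbid-201, which starts at 30423275, carried most of the gene's TPM, and the printed stretch with 2 matches lies between these starts. The share of Nfkbid-203 was 35.4%, 0%, and 0% in PBS and 66.3%, 75.4%, and 75.7% at LPS 30 min, with no overlap. After 15 min it ranged from 6.32% to 78.2% and after 4 h from 49.4% to 96.7%, so libraries of 1 group disagreed widely where the gene was low. For Tnip1, the shares at LPS 4 h were close together: Tnip1-205 held 43.2%, 44.0%, and 44.2%, above its 12.4% to 31.0% in PBS. Tnip1-206, which starts further downstream, held 2.60% to 3.85% at LPS 4 h and 9.56% to 25.7% in PBS. Salmon divides fragments between overlapping transcripts, so these shares are estimates and were not tested.

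**Figure D5:**
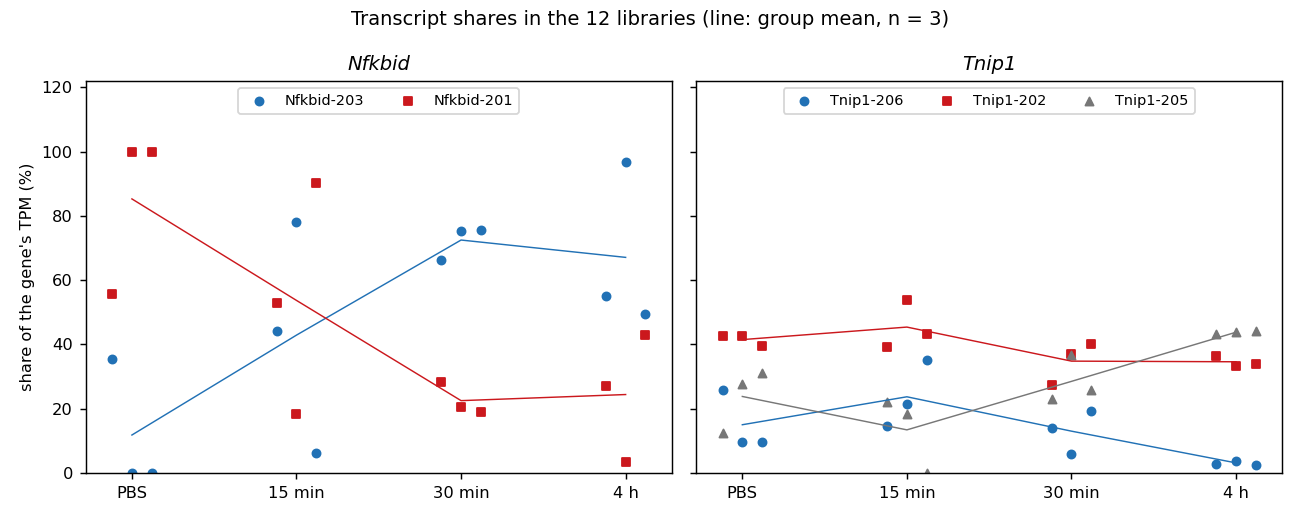
Share of the gene's TPM (%) held by the main annotated transcripts of Nfkbid (left) and Tnip1 (right) in each library, with lines through the group means (n = 3). Nfkbid shares spread over most of the axis at LPS 15 min and are tight at LPS 30 min (66.3% to 75.7% for Nfkbid-203), and Tnip1 shares are tight at LPS 4 h.

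The summed levels of some cell type marker lists, though not of the mural one, also differed between PBS and LPS 4 h. The summed level of 10 endothelial markers was 10388 to 10694 CPM in PBS and 6529 to 6582 CPM at LPS 4 h, when 8 of 10 were called lower and 1 higher. At each early time 2 were called higher and 2 lower. The sum was 10653 to 10717 CPM at LPS 15 min and 11342 to 11416 CPM at LPS 30 min. Slc2a1, 1 of the 2 called higher, went from 2686 to 2788 CPM in PBS to 5500 to 5538 CPM at LPS 30 min. At LPS 4 h Cldn5, of the tight junctions, fell by 2.31 on the log2 scale, and Cdh5, of the adherens junctions, rose by 1.96. In bulk vessels, fewer cells of a type and less RNA per cell cannot be told apart. Mural markers summed to 4772 to 4869 CPM in PBS, 4153 to 4192 CPM at LPS 15 min, and 4719 to 4832 CPM at LPS 4 h. In this list Anpep fell by 1.76 at LPS 4 h and Pdgfrb was at 0.05. Neutrophil markers summed to 7.08 to 8.74 CPM in PBS, 5.05 to 7.06 CPM at LPS 15 min, 8.18 to 10.1 CPM at LPS 30 min, and 229.7 to 234 CPM at LPS 4 h. All 7 tested of the 8 were then called higher, S100a8 by 6.11 and S100a9 by 6.22, while Ly6g, which defines the lineage, was at 0 in all PBS and LPS 15 min libraries and at 0.137 to 0.599 CPM at LPS 4 h. The part of these cells in the late rise of the 9 genes was not tested.

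Astrocyte markers summed to 376 to 406 CPM in PBS, 259 to 286 CPM at LPS 15 min, and 951 to 1000.5 CPM at LPS 4 h, where 3 of 6 were called higher, Gja1 (2.81), Aqp4 (2.49), and Gfap (0.65). Most of the rise of this sum was in Gja1, the gap junction gene, which went from 74 to 75 CPM in PBS to 515 to 534 CPM at LPS 4 h. Aqp4 varied widely between libraries, from 0.787 to 4.93 CPM in PBS and from 5.87 to 26.4 CPM at LPS 4 h. When Tnfaip2 fell at LPS 15 min, Gfap also fell, from 170.3 to 192 CPM in PBS to 73.7 to 81.9 CPM. It was the 1 astrocyte marker of 6 called then, while Aqp4 was higher without a call and with overlapping libraries. Of 6 neuronal markers 2 were called higher, Syt1 (0.70) and Slc17a7 (1.24). Slc17a7 went from 70.7 to 72.7 CPM in PBS to 166 to 173 CPM at LPS 15 min. Of 8 mural markers 2 were called, the contractile genes Acta2 (-0.75) and Myh11 (-0.67), both lower. The other mural markers went both ways without a call. Kcnj8 (0.70), Abcc9 (0.48), and Rgs5 (0.14) were higher, and Pdgfrb, Anpep, and Tagln were lower. The part of the cells these genes mark in the fall of Tnfaip2 was not tested. Microglial markers summed to 104 to 109.9 CPM in PBS and 66.5 to 72.5 CPM at LPS 4 h, with 1 called higher and 3 lower of 7. There Aif1 was at -0.26 and Csf1r at -0.44, both without a call. Neuronal markers summed to 339 to 351 CPM in PBS, 507 to 520.0 CPM at LPS 15 min, and 253 to 263 CPM at LPS 4 h. Of these 1 of 6 was called lower at LPS 4 h, with Snap25 at -0.59 and Syt1 at -0.29. The part of these cells was not tested either.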

How the data were processed

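RNA of vessels from perfused forebrain, isolated by a dextran spin and retention on a mesh, was sequenced with SMART-Seq v4 and Nextera XT, which do not mark strand. The authors quantified reads with Salmon 1.2.1 against GRCm38.p6. The deposited estimated counts are fragments per transcript, not normalized. The deposited TPM account for transcript length and have the same total in each library. The signal in the deposited gene table came from counts scaled with size factors of DESeq2 by the authors. All per-library columns were used.

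Transcripts were joined to GENCODE M21 (139852 of 140948) and counts summed to genes and rounded. Of the summed genes, 19150 passed filterByExpr (count 10, total 15, proportion 0.7). A single quasi-likelihood fit of all 12 libraries was made in edgeR 4.0.16 (R 4.3.3) with TMM, and glmTreat tested changes beyond 0.58. The SE is the log2 fold change divided by the root of the quasi-likelihood F. Groups came from the sample titles. Alternatives were DESeq2 1.42.0, limma 3.58.1 on the gene table with pseudocounts of 1 and 10, RLE factors, library size only, no filter, no fold limit, an added limit of 1.5, a length offset, only the groups compared, a replicate block, and leaving out each library. Reference-gene scaling was added after seeing the data. The test was tried on simulated data. The 10 genes and all lists were chosen with earlier results of these data known. The text names all 10 genes, from each pathway list the 3 called genes that rose most and the 2 that fell most at LPS 4 h and the 2 that rose most at LPS 30 min, the 3 most similar genes of each, the first 2 of each marker list described, and transcripts with at least 10% of a gene's TPM. Ikbkb, Ikbkg, Csf2, Ly6g, Gja1, Slc2a1, Slc17a7, Acta2, Myh11, Kcnj8, Abcc9, Rgs5, and Tagln were named after their values were seen. The result of 1 marker list is not reported here. Tables and plots used pandas and matplotlib.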

Additional observations from a re-analysis of the deposited data

Results flagged for a closer look

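For the genes below, the level differed between LPS times by the test of the difference itself (edgeR glmTreat, log2 scale), and no explanation was weighed. The same PBS group served all times, so a changing LPS effect and the time since injection cannot be told apart. Between LPS 15 min and LPS 30 min the level grew for Tnfaip3 by 3.68, Nfkbiz by 3.17, Nfkbid by 2.39, Tnfaip2 by 1.94, Bcl3 by 1.85, Nfkbia by 1.39, and Nfkbie by 1.21. For Tnfaip2 this included a turn from below to above PBS. Between LPS 30 min and LPS 4 h it grew for Tnip1 by 4.40, Nfkbie by 3.86, Tnfaip2 by 3.41, Bcl3 by 2.42, Nfkbib by 2.08, Tnfaip3 by 1.12, and Nfkbia by 0.99. Over the same step it was lower for Nfkbid, at -1.75. Groups of 3 libraries were not searched for libraries far from the others.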

How the results depend on the processing

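The 50 member values (10 genes in 5 comparisons) kept their direction and call with RLE factors, no filter, only the groups compared, DESeq2, and the replicate block. With the block 5, 6, 9, 7, and 8 of the 10 genes were called in the 5 comparisons (the 3 LPS times against PBS, then 30 min against 15 min, then 4 h against 30 min), the counts of the fit without it, and it changed none of the 50 member calls. Same-numbered libraries did not deviate together (correlations -0.0489 to 0.0679 over 18 pairs), so the numbers were not taken as a pairing. Leaving out each library in turn gave the same 5 to 5, 6 to 6, 9 to 9, 7 to 7, and 8 to 8 calls, and 8 to 9, 20 to 21, 46 to 48, 19 to 22, and 42 to 44 pathway genes.

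Without the fold limit 8 of the 10 genes were called at LPS 15 min, and 29, 41, and 40 pathway genes at LPS 15 min, at LPS 30 min, and between these times (main 9, 21, and 21). With an added limit of 1.5, 2 of the 10 genes and 5 pathway genes were called at LPS 15 min, and 27 pathway genes at 4 h against 30 min (main 42). The limits by construction admit more or fewer genes. Over all genes these fits called 7393, 7066, 13124, 7153, and 12498, and 168, 372, 2858, 254, and 2450, against 814, 884, 6315, 911, and 5530.

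Signs turned only for values without a call, and the cause was not tested. Cyld was -0.01 at LPS 15 min by reference genes and by limma with either pseudocount. Its LPS 30 min value was 0.09 with the length offset and 0.08 by limma, and at 30 min against 15 min it was 0.08 in these 3 fits. By LPS 4 h it was -0.29 by library size and -0.51 by reference genes, and at 4 h against 30 min -0.09 by library size. By reference genes Nfkbib was -0.23 and Tnip1 -0.20 at LPS 30 min, and Nfkbib was -0.02 at 30 min against 15 min.

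Library size alone moved the median of all genes by 0.1 or more in 4 of the 5 comparisons (to -0.17, -0.71, -0.14, and -0.58 after LPS 15 min). It left 60.8%, 18.2%, 37.1%, and 21.7% of calls higher, against 82.4%, 58%, 58.2%, and 58.8% with TMM. Reference genes left 65.2%, 7.28%, 13.3%, 8.35%, and 31.2% in the 5 comparisons, the first against 78.9%. All calls by library size were 10523 at LPS 4 h and 8915 at 4 h against 30 min, and by reference genes 4627, 12260, and 2839 at LPS 30 min, LPS 4 h, and 30 min against 15 min. limma called 401 or 383 genes at LPS 15 min, 541 or 504 at LPS 30 min, and 445 or 418 at 30 min against 15 min. Depth limits the lowest genes most, Nfkbie and Nfkbid with 57 and 62 fragments at the least. Of called member values, the length offset and limma also lost that of Tnfaip2 at LPS 30 min, and limma with a pseudocount of 10 that of Nfkbie between 15 and 30 min (1.03).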

Other observations

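Transcripts with a retained intron were quantified for Tnfaip3 and Nfkbie, beside the coding transcripts that dominate both genes. Tnfaip3-205 held 7.71%, 2.94%, and 3.27% of the gene's TPM in PBS and 12.2%, 13.4%, and 14.2% at LPS 15 min, with no overlap. The range was 7.4% to 7.88% after 30 min and 5.43% to 6.34% after 4 h. Nfkbie-202 held 10.8% to 14.4% in PBS. After 30 min of LPS the range was 22.1% to 27.9%, and after 4 h it was 5.41% to 7.75%. Its LPS 15 min values ranged from 5.24% to 18.4%, when the whole gene stood at 1.39 to 2.06 TPM. These shares are Salmon estimates and were not tested.

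Other genes were served by 1 main transcript at all times: Nfkbia-201 with 92.1% to 95.9%, Nfkbib-202 with 97.1% to 98.6%, and Nfkbiz-204 with 95.4% to 98.5% as group means. Bcl3-201 held 74.4% in PBS and 83.1% at LPS 4 h, and Tnfaip2-201 held 69.5% and 89.4%, with 52.1% to 85.2% over the PBS libraries. Cyld had 5 transcripts with at least 10% of its TPM in a group mean, with Cyld-203 at 64.8% ± 2.85 (SD, n = 3) at LPS 15 min and 40.9% ± 8.69 at LPS 4 h.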
